A study of Mus musculus with 2 samples.

Results

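The semaphorin, Slit, netrin and ephrin guidance genes were taken by symbol: every gene of the deposited table starting with Sema, Plxn, Slit and a digit, Robo, Unc5, Ntn, Epha, Ephb or Efn, without the Slitrk and Nrp genes. The rule found 72 of the 31053 genes. Of these, 67 encode guidance ligands or receptors: 20 semaphorins, 9 plexins, 3 Slits, 4 Robos, 5 netrins or netrin-G proteins, 4 Unc5 receptors, 8 ephrins and 14 Eph receptors. The other 5 were matched by symbol alone: Unc50, Unc5cl and the transcripts Plxna4os1, Plxna4os2 and Plxna4os3. All 72 were found in GENCODE M21.

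The genes were measured in nuclei of brown adipose tissue of C57BL/6 mice, an inbred laboratory strain. The group called 1cyc was taken 4 days after a transient acute cold exposure, a primary cold challenge. The group called TN was housed at thermoneutrality, where no extra heat production is needed. For each group the nuclei of 5 mice were pooled, sorted as DAPI-positive, and made into 1 library on the 10X Genomics platform. Condition and library therefore cannot be told apart, the mouse of a nucleus is not known, and no test between conditions was possible.

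Guidance cues are secreted or membrane-bound proteins that attract or repel growing axons and also direct blood vessels and migrating cells. Semaphorins signal through plexins, often with neuropilins as co-receptors for the secreted class 3, Slits through Robo receptors, netrins through Dcc, neogenin and Unc5 receptors, and ephrins through Eph receptor kinases on a touching cell, where the ephrin can signal backwards as well. In fat, nerve fibres and capillaries run among the adipocytes, and Slit3 is known in mice as a secreted cue that acts on sympathetic nerves and vessels of adipose tissue.

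Promoter windows are printed for Slit3 and Sema5a, which were both lower in the 1cyc adipocyte class and higher in adipocytes with Nnat and Slc7a10 RNA, and for Efna5, which held the most UMIs of the 72 genes and followed another pattern. Each window runs 5′ to 3′ on the gene's strand from 250 bases before to 50 bases after the annotated start (RefSeq, GRCm38.p6). Capitals mark matches, on either strand and overlaps included, to the letters AGGTCA (a nuclear receptor half-site), GGGCGG (a GC box), CCAAT and TATAAA. The windows lie at chr11:35121206-35121505 on the plus strand for Slit3, chr15:32244563-32244862 on the plus strand for Sema5a and chr17:62881268-62881567 on the minus strand for Efna5.
Slit3: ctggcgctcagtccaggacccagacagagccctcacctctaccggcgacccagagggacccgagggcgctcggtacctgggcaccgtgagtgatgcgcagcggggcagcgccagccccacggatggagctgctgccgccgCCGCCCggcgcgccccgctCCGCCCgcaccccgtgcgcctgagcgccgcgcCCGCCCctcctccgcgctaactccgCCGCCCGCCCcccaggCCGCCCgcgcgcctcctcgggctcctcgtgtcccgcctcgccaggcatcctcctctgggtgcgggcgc
Sema5a: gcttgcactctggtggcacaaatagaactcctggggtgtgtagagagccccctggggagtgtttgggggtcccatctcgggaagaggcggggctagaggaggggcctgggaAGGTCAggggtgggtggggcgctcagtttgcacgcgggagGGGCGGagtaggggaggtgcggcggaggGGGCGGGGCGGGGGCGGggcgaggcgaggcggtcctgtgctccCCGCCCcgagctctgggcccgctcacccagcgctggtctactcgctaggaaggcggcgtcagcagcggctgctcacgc
Efna5: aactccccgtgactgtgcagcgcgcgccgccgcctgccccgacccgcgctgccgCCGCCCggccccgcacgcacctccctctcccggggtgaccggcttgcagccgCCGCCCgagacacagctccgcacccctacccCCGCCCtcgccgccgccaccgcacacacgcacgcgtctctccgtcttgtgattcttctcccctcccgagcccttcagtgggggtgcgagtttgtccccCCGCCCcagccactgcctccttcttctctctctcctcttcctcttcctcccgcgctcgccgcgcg
The Slit3 window held 6 GC boxes, the Sema5a window 5 GC boxes and 1 AGGTCA half-site, and the Efna5 window 4 GC boxes; none of the 3 held the letters CCAAT or TATAAA. Among all 32851 windows, 35.7% held GGGCGG, 16.3% AGGTCA, 37.4% CCAAT and 13.6% TATAAA. The windows were rich in G and C, at 78.3% in Slit3, 71.3% in Sema5a and 73.3% in Efna5, against a median of 52.7% over all windows. A match is a run of letters and not a measured binding site. The Slit3 gene spans 587 kb (ENSMUSG00000056427, chromosome 11, 35121224 to 35708507), Sema5a 452 kb (ENSMUSG00000022231, chromosome 15, 32244810 to 32696341) and Efna5 277 kb (ENSMUSG00000048915, chromosome 17, 62604184 to 62881317) in GENCODE M21 on mm10.

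The 1cyc library held 2469900 UMIs in 4321 barcodes with a median of 378 UMIs, and the TN library 2745808 UMIs in 2551 barcodes with a median of 800. The lowest deposited barcode had 262 UMIs in 1cyc and 500 in TN, and the median mitochondrial share was 22.1% in 1cyc and 4.76% in TN. The 2046 1cyc and 2467 TN barcodes under 20% mitochondrial UMIs were used, and 6 barcode sequences occurred in both libraries. A barcode joined a class with at least 3 UMIs of its markers: Pparg, Acsl1 and Ppara for adipocytes (1593 barcodes in 1cyc and 1926 in TN), Pdgfra, Dcn and Lama2 for fibroblasts (63 in 1cyc and 169 in TN), Ptprb and Flt1 for endothelial cells (27 in 1cyc and 123 in TN), and Postn and Trpc6 for mural cells (7 in 1cyc and 16 in TN). UMIs were summed per class and library. Levels are in CPM, a gene's UMIs per 1000000 UMIs of its sum. A sum does not separate more nuclei with an RNA from more RNA per nucleus. Exact 95% Poisson or binomial intervals, given in brackets, cover counting error only.

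The class names were checked against markers that the rule did not use. The adipocyte class held all 7 further adipocyte markers, Ucp1 and Adipoq among them, summing to 3208 CPM in 1cyc and 2299.7 CPM in TN. The Pdgfra/Dcn/Lama2 barcodes held all 9 fibroblast markers, summing to 6059.6 CPM in 1cyc and 5557 CPM in TN. The Ptprb/Flt1 barcodes held all 6 endothelial markers, at 4575 CPM in 1cyc and 4459 CPM in TN. Skeletal muscle markers summed to more, 5375 CPM, in the 1cyc barcodes of this class, and to 68.3 CPM in TN. In endothelial-only barcodes of 1cyc they summed to 12914 CPM, beside 5458 CPM of endothelial markers. Their part in the 1cyc endothelial levels was not tested. The Postn/Trpc6 barcodes held 8 of 9 markers of pericytes and smooth muscle, with Acta2, a smooth muscle actin, at 0 in both libraries. The classes overlapped: 16 of the 27 1cyc and 71 of the 123 TN endothelial barcodes were also in the adipocyte class, as were 14 of the 63 1cyc and 40 of the 169 TN fibroblast barcodes. Of the mural barcodes, 4 of 7 in 1cyc and 7 of 16 in TN were also in the adipocyte class, 1 in 1cyc also in the fibroblast class and 1 in TN also in the endothelial class. Endothelial markers summed to 144 CPM in the adipocyte class of 1cyc and 438 CPM in that of TN, and fibroblast markers to 253 CPM in 1cyc and 397 CPM in TN.

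All 20 semaphorins, all 9 plexins, all 3 Slits, all 4 Robos and all 4 Unc5 receptors had a UMI. Of the 72 genes, 14 reached 50 UMIs over both libraries in a class, the minimum for a fold. All 14 did so in the adipocyte class, where 6852 of all 31053 genes did. Of the 14 guidance genes, 10 were ligands and 4 were receptors. Ligands held 85.2% of the 10920 UMIs of the 72 genes and receptors 14.3%. Efna5, a membrane-anchored A-class ephrin, held 37.2%, and Slit3, a secreted Slit, held 24.1%. A further 52 genes were detected below the minimum, and 6 had no UMI: Efna3, Efna4, Ntn5, Epha8, Plxna4os2 and Plxna4os3. Levels were not compared between genes, since whether introns were counted is not known and gene lengths differ widely.

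**Figure D1:**
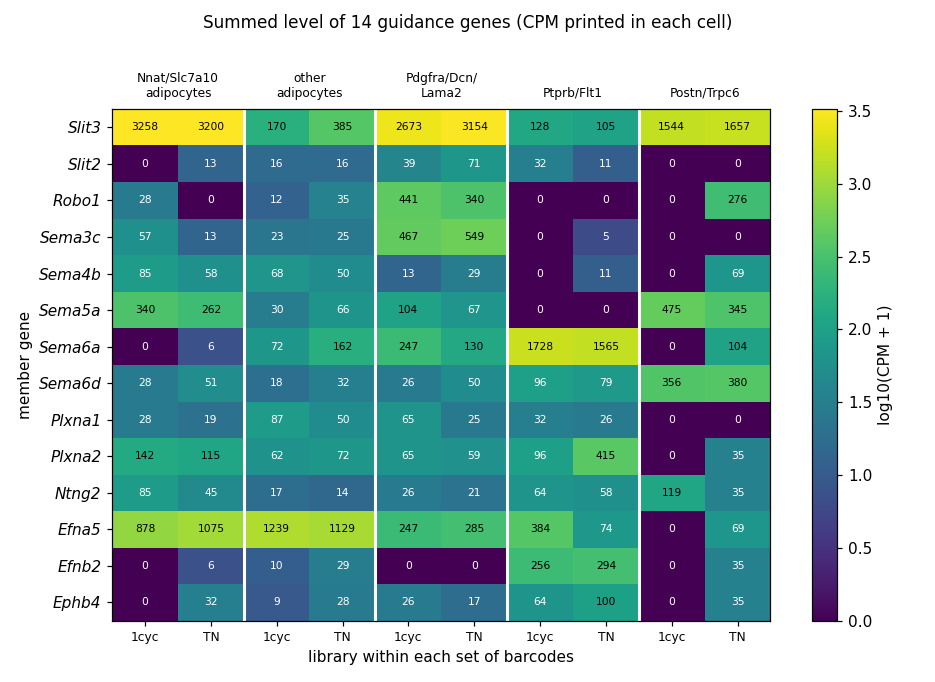
Summed level of the 14 guidance genes that reached 50 UMIs in a class (rows), in CPM, printed in each cell and coloured as log10(CPM + 1). Columns are sets of barcodes, with 1cyc left of TN in each; Slit3 was high in the Nnat/Slc7a10 adipocytes, the Pdgfra/Dcn/Lama2 class and the Postn/Trpc6 class of both libraries, and Sema6a in the Ptprb/Flt1 class.

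The ephrin Efna5 was the guidance gene with most UMIs in adipocytes. Its adipocyte level was 1229.7 CPM in 1cyc (1602 UMIs) and 1124 CPM in TN (2127 UMIs). In the fibroblast class it was at 247 CPM in 1cyc and 285 CPM in TN, which put the fibroblast level at 0.200 of the adipocyte level in 1cyc (0.120 to 0.314) and 0.254 in TN (0.196 to 0.323). In the endothelial class it was at 384 CPM in 1cyc, from 12 UMIs, and 73.5 CPM in TN, from 14 UMIs. The adipocyte level was thus the higher one in both libraries. With each barcode thinned to 500 UMIs and shallower ones left out, an Efna5 UMI was seen in 45.0% of 928 1cyc and 43.0% of 1826 TN adipocytes outside the Nnat/Slc7a10 set, and in 8.89% of 45 1cyc and 12.4% of 129 TN fibroblast-only barcodes. In endothelial-only barcodes it was seen in 3 of 10 in 1cyc and 1.92% of 52 in TN. The unthinned shares of the adipocytes were 50.7% in 1cyc and 56.5% in TN, and 644 1cyc barcodes were too shallow for thinning.

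The Eph receptors that bind ephrins were scarce: 13 of 14 were detected and only Ephb4, a receptor of B-class ephrins known from veins, reached the minimum, so that A-class receptors could not be compared. Epha6 had 24 adipocyte UMIs in 1cyc and 21 in TN, and Epha3 and Epha7 had 18 or fewer in each library. Efnb2, a B-class ephrin known from arteries, was at 256 CPM in the endothelial class of 1cyc and 294 CPM in that of TN. In TN this was 10.9 times its adipocyte level (7.33 to 16.3), and Ephb4 was 3.50 times higher in the endothelial than in the adipocyte class (1.96 to 5.99). That Ephb4 ratio rests on barcodes that were also in another class, which held 17 of its 19 endothelial UMIs in TN: in endothelial-only barcodes of TN it was at 32.1 CPM, from 2 UMIs (3.89 to 116), against 21.8 CPM in adipocyte-only barcodes (15.4 to 30.1), and the intervals overlap.

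Slit3 was high in the fibroblast class. It was at 2673 CPM in 1cyc and 3154 CPM in TN fibroblasts, 10.5 times the adipocyte level in 1cyc (8.80 to 12.6) and 5.10 times in TN (4.65 to 5.60). The mural class held 1544 CPM in 1cyc and 1657 CPM in TN; in mural-only barcodes there were 0 UMIs in the 2 of 1cyc, where the floor is 2039 CPM, and 21 UMIs, or 1366 CPM, in the 9 of TN. The endothelial class held 128 CPM in 1cyc and 105 CPM in TN. Slit2, its secreted paralogue, had 20 adipocyte UMIs in 1cyc and 30 in TN, and 3 fibroblast UMIs in 1cyc and 17 in TN. The thinned share of fibroblast-only barcodes with a Slit3 UMI was 68.9% of 45 in 1cyc and 73.6% of 129 in TN. The same share in endothelial-only barcodes was 0 of 10 in 1cyc, which allows up to 30.8%, and 3.85% of 52 in TN, with median depths of 979 UMIs in 1cyc and 1021 in TN, against 1158 in 1cyc and 1157 in TN of the fibroblast-only barcodes.

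The receptor Robo1 was high in the fibroblast class, as was the ligand Slit3. It was at 441 CPM in 1cyc and 339.7 CPM in TN fibroblasts, 35.9 times the adipocyte level in 1cyc (19.3 to 69.7) and 10.5 times in TN (7.46 to 14.9). The endothelial class had no Robo1 UMI in either library. The mural class of TN had Robo1 at 276 CPM, from 8 UMIs (119 to 544), which overlaps the TN fibroblast interval (270 to 422). In the mural class of 1cyc it had 0 UMIs, where the floor is 356 CPM. Robo1 was thus not shown to be particular to fibroblasts. Robo4, the Robo of endothelial cells, showed the opposite placement: 64.0 CPM in 1cyc (2 UMIs) and 147 CPM in TN (28 UMIs) of the endothelial class, none in fibroblasts, and in TN a level 12.6 times that of adipocytes (6.98 to 23.2). Robo2 and Robo3 had 4 or fewer UMIs in each class and library. For fibroblasts over adipocytes of 1cyc, 5 of the 9 measured members were higher by 1.5-fold or more and 2 lower, where 20.9% of all genes tested were higher and 42.2% lower. In TN, 3 of 12 were higher and 5 lower, where 18.8% of all genes were higher and 36.9% lower. Slit3, Sema3c and Robo1 were the higher ones in both libraries. Sema3c in both libraries and Robo1 in 1cyc reached 50 UMIs only with their fibroblast UMIs, so these counts are descriptions and support nothing.

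Sema3c, a secreted class 3 semaphorin, was another fibroblast gene. It was at 467 CPM in 1cyc and 549 CPM in TN fibroblasts, 19.6 times the adipocyte level in 1cyc (11.8 to 32.8) and 22.6 times in TN (16.0 to 32.3), with 0 endothelial UMIs in 1cyc and 1 in TN and none in the mural class. Sema3e, the ligand of Plxnd1, had 2 fibroblast UMIs in 1cyc and 26 in TN, and Sema3a had 9 in 1cyc and 19 in TN; both had none in the endothelial class. Sema3g, described as an endothelial semaphorin, had 1 UMI in 1cyc and 21 in TN endothelial barcodes. Of the 4 plexins with at least 50 UMIs over the TN endothelial and adipocyte classes, 3 were higher in the endothelial class: Plxnd1 was 9.37 times (5.64 to 15.5), Plxna4 7.52 times (4.43 to 12.6) and Plxna2 5.49 times (4.12 to 7.27) the adipocyte level. Plxna1 was at 0.552 of the adipocyte level there (0.175 to 1.34). In that TN comparison 8 of the 14 measured members were at least 1.5-fold higher in the endothelial class and 6 lower; over all genes tested, 25% were higher and 36.7% lower. Plxna4, Plxnd1 and Robo4 reached 50 UMIs only with their endothelial UMIs, so this count is a description and supports nothing. In 1cyc, 2 of 7 were higher, Sema6a and Plxna2, the last on 3 UMIs, and 5 lower, where 22.8% of all genes were higher and 46.7% lower. Of these 5, Sema4b and Sema5a had 0 UMIs, which at this depth sets no level below that of adipocytes.

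Sema6a, a transmembrane semaphorin and ligand of Plxna2 and Plxna4, was high in the endothelial class, at 1728 CPM in 1cyc (54 UMIs) and 1565 CPM in TN (298 UMIs). This was 24.7 times (17.3 to 35.0) the adipocyte level in 1cyc and 10.5 times (8.86 to 12.4) in TN. It was not alone there: below the minimum, the membrane semaphorin Sema7a was at 78.8 CPM in the endothelial and 6.34 CPM in the adipocyte class of TN, Sema4c at 73.5 CPM in the endothelial and 8.46 CPM in the adipocyte class, and Sema6b at 52.5 CPM in the endothelial and 5.81 CPM in the adipocyte class. They had 15, 14 and 10 endothelial UMIs in that order. Sema5a, which carries thrombospondin repeats, had no endothelial UMI in either library. In the mural class it was at 475 CPM in 1cyc, from 4 UMIs, and 345 CPM in TN, from 10 UMIs. Sema6d followed in the same class with 356 CPM in 1cyc, from 3 UMIs, and 379.7 CPM in TN, from 11 UMIs. These mural sums came from 7 barcodes in 1cyc and 16 in TN. Over adipocytes, 4 of 11 measured members were higher in the mural class of TN (Slit3, Sema5a, Sema6d and Robo1) and 3 lower, where 21.8% of all genes tested were higher and 47.2% lower. Of these 3, Plxna1 had 0 mural UMIs, which sets no lower level at the floor, Plxna2 had 1, a ratio of 0.457 (0.0115 to 2.59), and Sema6a had 3, a ratio of 0.692 (0.142 to 2.04). In 1cyc, 2 of 7 were higher (Slit3 and Sema5a) and 5 lower, where 25.2% of all genes were higher and 59.6% lower; all 5 had 0 mural UMIs, and Efna5 alone of them was lower at the floor of 3 UMIs. Netrin-4 (Ntn4), a basement membrane netrin, and Ntng1, a membrane-anchored netrin-G, each had 2 mural UMIs in 1cyc and 6 in TN. Netrin-1 (Ntn1) was instead at 104 CPM in 1cyc and 105 CPM in TN fibroblasts, with no mural UMI. The netrin receptor Unc5b had 7 UMIs in 1cyc and 24 in TN endothelial barcodes, and Unc5c had 14 of its 31 TN adipocyte UMIs in the Nnat/Slc7a10 adipocytes.

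The comparison of 1cyc with TN was made first in the adipocyte class, where all 14 genes reached the minimum. Of them, 1 was at least 1.5-fold higher in 1cyc and 7 at least 1.5-fold lower; over all 6852 genes tested, 9.68% were higher and 9.62% lower by that measure. With TMM scaling, which fits a library factor from the bulk of the genes, the members' counts were again 1 and 7, with 6.32% of all genes higher and 12.2% lower. The count lower was 3 with barcodes of 1 class only, 2 with 0 UMIs of the other class markers and 1 when barcodes with Nnat or Slc7a10 UMIs were left out as well. These sets hold fewer UMIs, and with 0 other class markers Efnb2, Robo1, Ephb4 and Sema6d fell under the minimum. Ephb4 and Sema6d left the count with ratios still at least 1.5-fold lower, given below with their intervals. Efnb2 and Robo1 left it with ratios inside the 1.5-fold limits on few UMIs, and Sema6a with a ratio above 1. A smaller count alone does not separate lost UMIs from a lost difference. The median log2 ratio of the 14 genes was -0.56, beside 0.05 over all genes tested. The gene higher in 1cyc was Plxna1, a plexin receptor for class 3 and class 6 semaphorins. The 7 lower ones were Slit3, Sema5a, Sema6a, Sema6d, Efnb2, Ephb4 and Robo1. Of these 7, Sema6d, Efnb2, Ephb4 and Robo1 reached the minimum only with their TN UMIs. The counts of members and their median ratio are therefore descriptions and support nothing. Each condition is 1 library, so the differences named here are between 2 libraries.

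Slit3 was at 254 CPM in the 1cyc adipocyte class (331 UMIs) and 618 CPM in the TN adipocyte class (1169 UMIs), a ratio of 0.411 (0.363 to 0.465). Sema5a was at 38.4 CPM in 1cyc and 81.9 CPM in TN, a ratio of 0.468 (0.334 to 0.648). Efna5, in contrast, had a ratio of 1.09 (1.02 to 1.17). Plxna1 was at 85.2 CPM in 1cyc (111 UMIs) and 47.6 CPM in TN (90 UMIs), a ratio of 1.79 (1.34 to 2.39). Of the 4 receptors that reached the minimum, it was the one at least 1.5-fold higher in 1cyc. Sema4b, a transmembrane class 4 semaphorin, was at 68.3 CPM in 1cyc and 50.2 CPM in TN, 1.36 times higher (1.01 to 1.84) and so under the 1.5-fold measure. Ntng2 at 1.13 (0.645 to 1.98), Sema3c at 0.979 (0.600 to 1.58), Slit2 at 0.968 (0.521 to 1.76) and Plxna2 at 0.843 (0.635 to 1.11) had intervals that included 1.

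**Figure D2:**
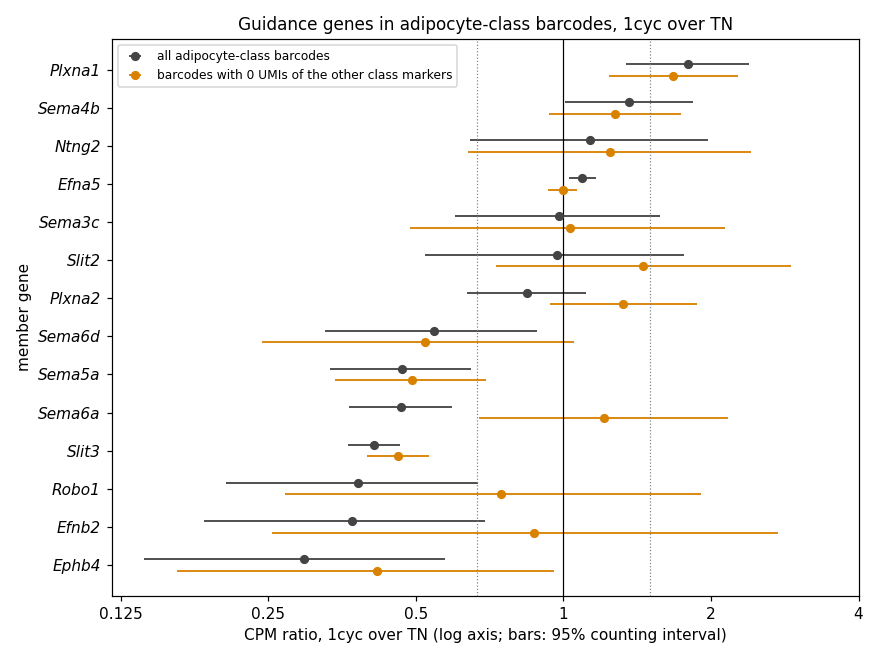
CPM ratio of 1cyc over TN in the adipocyte class (log axis) for the 14 genes, with 95% counting intervals, for all adipocyte-class barcodes and for those with 0 UMIs of the other class markers. The dotted lines stand at 1.5-fold; Slit3 had 0.411 in all barcodes and 0.461 in the stricter set, Plxna1 1.79 and 1.68, and Sema6a 0.467 and 1.21.

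Some of these ratios changed where RNA of other classes was left out. Sema6a was at 69.8 CPM in 1cyc and 149.6 CPM in TN in all adipocyte-class barcodes, a ratio of 0.467 (0.365 to 0.593). In barcodes with 0 UMIs of the other class markers it was at 21.5 CPM in 1cyc and 17.8 CPM in TN, a ratio of 1.21 (0.673 to 2.16), and with 0 UMIs of 8 endothelial genes the ratio was 1.03 (0.570 to 1.83). Without those barcodes the levels of this endothelial gene differed by less than their counting intervals. Efnb2 had a ratio of 0.370 (0.185 to 0.691) in all barcodes. With 0 other class markers it had 0.870 (0.255 to 2.74), on 6 UMIs in 1cyc and 9 in TN, and with 0 endothelial genes 1.15 (0.319 to 3.99), on 6 UMIs in 1cyc and 7 in TN. Robo1 had 0.381 (0.205 to 0.669) in all barcodes and 0.746 (0.271 to 1.90) on the 8 UMIs in 1cyc and 14 in TN left with 0 other class markers. Ephb4 had 0.296 (0.139 to 0.572) in all barcodes and 0.418 (0.163 to 0.955) with 0 other class markers, and Sema6d 0.545 (0.326 to 0.883) and 0.522 (0.243 to 1.05).

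Slit3 and Sema5a kept ratios of 0.461 (0.397 to 0.533) and 0.492 (0.343 to 0.696) with 0 other class markers, and Plxna1 kept 1.68 (1.24 to 2.27). When barcodes with any Nnat or Slc7a10 UMI were left out as well, Slit3 was at 107 CPM in 1cyc and 152 CPM in TN, a ratio of 0.700 (0.552 to 0.885), which is inside the 1.5-fold limits. Sema5a then had 0.502 (0.321 to 0.769) and Plxna1 1.61 (1.18 to 2.20). The Slit3 difference thus shrank with both kinds of barcodes removed, and that of Sema5a did not. Blood genes summed to 5000.0 CPM in 1cyc and 23574 CPM in TN adipocyte-class barcodes; without haemoglobin in the totals no count of members changed by over 1.5 times.

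**Figure D3:**
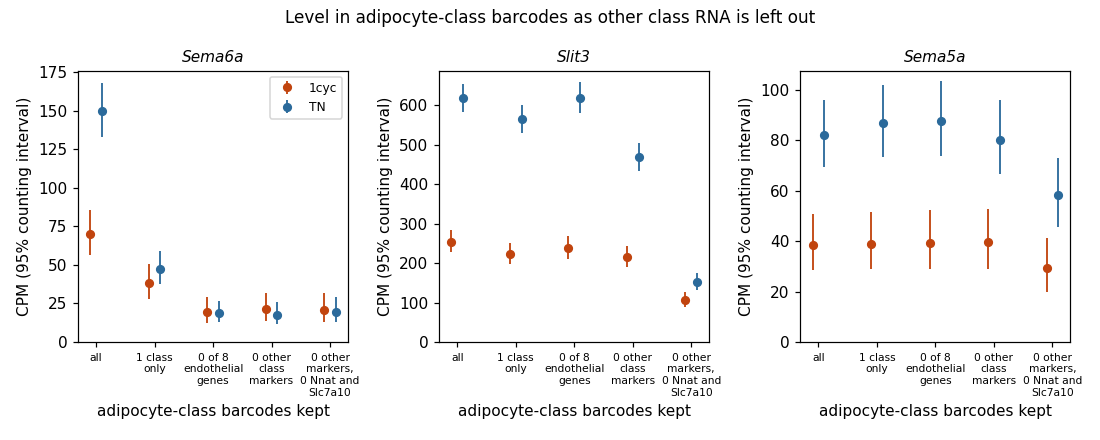
Level of Sema6a, Slit3 and Sema5a in CPM (points, with 95% counting intervals) in adipocyte-class barcodes, 1cyc left of TN, for all barcodes and for 4 stricter sets. Sema6a of TN was at 149.6 CPM in all barcodes and 17.8 CPM with 0 other class markers, where 1cyc had 21.5 CPM; Sema5a was lower in 1cyc in each set.

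Adipocytes were then divided by Nnat, an imprinted gene, and Slc7a10, an amino acid transporter gene known from white adipocytes. Barcodes with at least 3 UMIs of the pair numbered 21 of 1593 in 1cyc (1.32%) and 100 of 1926 in TN (5.19%), and held 2.71% of the adipocyte UMIs of 1cyc and 8.26% of those of TN. The 3 white adipocyte markers outside the rule, Lep, Cfd and Npr3, summed to 1445 CPM in 1cyc and 1594 CPM in TN in these barcodes, against 271 CPM in 1cyc and 377 CPM in TN in the other adipocytes. Ucp1, the uncoupling protein of brown fat, had 0 UMIs in 1cyc and 6 in TN there. The list of 5 Schwann cell markers summed to 538 CPM in 1cyc and 512 CPM in TN of these barcodes, against 61.5 CPM in 1cyc and 81.8 CPM in TN of the other adipocytes. Of these markers 2 were detected in each library, led by Scn7a at 425 CPM in 1cyc and 506 CPM in TN, with Sox10 at 0; their part in the guidance gene levels was not tested. The median depth of the Nnat/Slc7a10 barcodes was 1501 UMIs in 1cyc and 1416 in TN, against 617 in 1cyc and 781.5 in TN of the other adipocytes.

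Slit3 and Sema5a were higher in the Nnat/Slc7a10 than in the other adipocytes of both libraries. Slit3 was at 3258 CPM in these and 170.4 CPM in the other adipocytes of 1cyc, 19.1 times higher (15.1 to 24.1). In TN it was at 3199.9 CPM in these and 385 CPM in the others, 8.30 times higher (7.38 to 9.34). Sema5a was 11.3 times higher in 1cyc (5.39 to 22.2) and 4.00 times higher in TN (2.72 to 5.76), from 12 UMIs in 1cyc and 41 in TN. In 1cyc Sema5a reached the minimum only with these 12, so the counts of members below are descriptions and support nothing. Efna5 did not share this placement, with ratios of 0.709 (0.480 to 1.01) in 1cyc and 0.953 (0.809 to 1.12) in TN. In 1cyc, 3 of the 7 measured members passed 1.5-fold upwards in these adipocytes and 2 downwards, where 22.2% of all genes tested were higher and 37.4% lower (9.58% and 53.3% with TMM scaling). In TN, 4 of 11 were higher and 4 lower, where 17.6% of all genes were higher and 28.8% lower (12.4% and 35.4% with TMM scaling).

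The third gene higher in both libraries was Plxna2, at 2.30 times in 1cyc (0.727 to 5.60) and 1.60 times in TN (0.918 to 2.63), with intervals that included 1. Sema6d, the fourth in TN, was at 1.59 times (0.653 to 3.35). Among the lower ones, Sema6a had 0 of its 91 UMIs in the Nnat/Slc7a10 adipocytes of 1cyc, where the floor of 3 UMIs is 85.0 CPM and the other adipocytes had 71.8 CPM, so that no lower level was detectable at this depth. It had 1 of 283 in TN, a TN ratio of 0.0394 (0.000994 to 0.221). The Slit receptor Robo1 had 0 of 61 UMIs there in TN, a ratio of at most 0.546 at the floor. Plxna1 had 1 of 111 UMIs there in 1cyc, a ratio of 0.326 (0.00819 to 1.86), and 3 of 90 in TN, a ratio of 0.383 (0.0775 to 1.16). Endothelial markers summed to 113 CPM in 1cyc and 51.2 CPM in TN of these adipocytes, against 144 CPM in 1cyc and 472 CPM in TN of the others. The TN ratio of Sema6a was 0.0348 to 0.396 over the alternatives, and that of Efnb2, 0.222 (0.00552 to 1.30) as reported, was 0.196 to 1.73.

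The level of Slit3 was higher in bins with more UMIs of the pair. With 0, 1, 2 and at least 3 Nnat and Slc7a10 UMIs it was at 148, 529, 2355 and 3258 CPM in 1cyc and at 332, 815, 1578 and 3199.9 CPM in TN. The 1cyc value at 2 UMIs came from 5 barcodes, and its interval (1372 to 3770) overlapped that at 3 or more (2690 to 3911). The median depth rose along the same bins, with 615, 688.5, 1429 and 1501 UMIs in 1cyc. In TN it was 779, 781, 1002 and 1416 UMIs, and the part of depth was not tested. The Slit3 ratio of 1cyc over TN was 0.446 (0.375 to 0.529) in barcodes with no UMI of the pair and 1.02 (0.824 to 1.25) in the Nnat/Slc7a10 adipocytes. In barcodes with no UMI of the pair and 0 other class markers, the ratio was the 0.700 (0.552 to 0.885) given above. Sema5a had a ratio of 0.472 (0.313 to 0.698) with no UMI of the pair and 1.30 (0.620 to 2.51) in the Nnat/Slc7a10 adipocytes. The difference between these ratios was not tested. Of the 3 members measured in the Nnat/Slc7a10 adipocytes, Slit3, Sema5a and Efna5, none was 1.5-fold apart between 1cyc and TN, where 10% of all genes tested were higher and 13.6% lower. In the other adipocytes 1 of 12 was higher, Plxna1, and 7 lower, the same 7 as in the whole class, where 9.68% of all genes were higher and 9.27% lower. Of these 7, Sema5a, Sema6d, Efnb2, Ephb4 and Robo1 reached 50 UMIs only with their TN UMIs. That count is therefore a description and supports nothing.

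**Figure D4:**
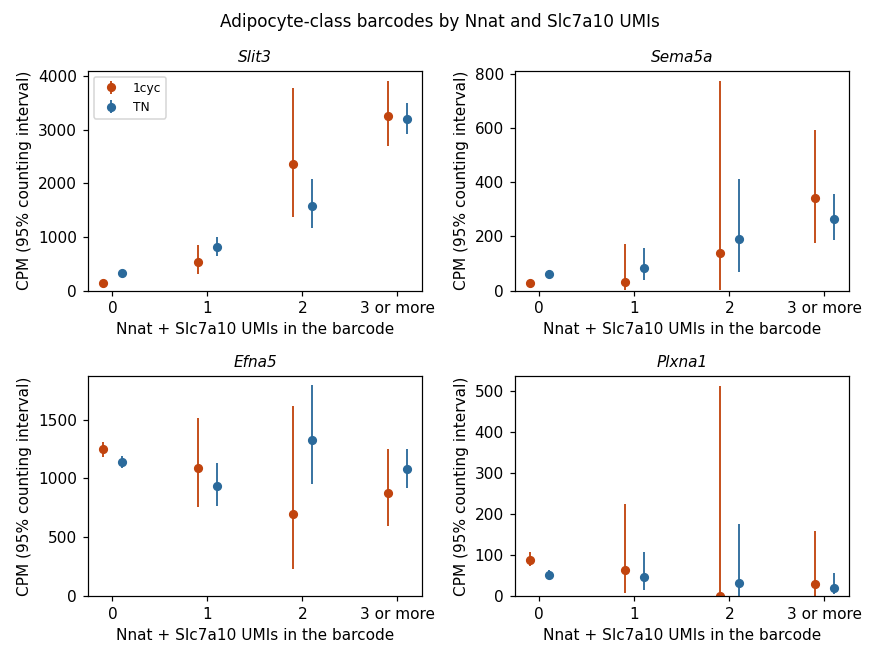
Level of Slit3, Sema5a, Efna5 and Plxna1 in CPM (points, with 95% counting intervals) in adipocyte-class barcodes by the number of Nnat and Slc7a10 UMIs, 1cyc left of TN. Slit3 went up along the bins in both libraries, and Plxna1 and Efna5 did not.

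The share of the adipocyte Slit3 UMIs that lay in the Nnat/Slc7a10 set was 34.7% in 1cyc (29.6 to 40.1) and 42.8% in TN (39.9 to 45.7). For Sema5a the shares were 24.0% in 1cyc (13.1 to 38.2) and 26.5% in TN (19.7 to 34.1), and for Efna5 1.94% in 1cyc (1.32 to 2.74) and 7.90% in TN (6.79 to 9.13). The Efna5 shares lay close to the share of all UMIs in this set, and those of Slit3 and Sema5a above it. Thinned to 500 UMIs, 80.0% of 20 1cyc and 64.0% of 100 TN Nnat/Slc7a10 adipocytes had a Slit3 UMI, against 6.90% of 928 1cyc and 11.1% of 1826 TN other adipocytes. The unthinned shares in the other adipocytes were 8.59% in 1cyc and 15.8% in TN. In endothelial-only TN barcodes the thinned share was 3.85%, with an interval of 0.469% to 13.2% that includes both values of the other adipocytes.

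Within the other 3 classes few guidance genes could be compared between 1cyc and TN. In the fibroblast class 5 reached the minimum: 1 was higher in 1cyc and none lower, where 11.7% of all genes tested were higher and 9.35% lower (3.55% and 18.5% with TMM scaling). That gene was Sema6a, at 247 CPM in 1cyc (19 UMIs) and 130.0 CPM in TN (31 UMIs), a ratio of 1.90 (1.01 to 3.46). Its 50 UMIs lay exactly at the minimum, and the call was lost with barcodes of 1 class only, a mitochondrial limit of 5%, marker sums of at least 5 and a fold of 2. With 0 other class markers the ratio was 0.758 (0.0769 to 3.98). Skeletal muscle markers summed to 662 CPM in 1cyc and 193 CPM in TN of this class, pericyte and smooth muscle markers to 623 CPM in 1cyc and 356 CPM in TN, and blood genes to 156 CPM in 1cyc and 37048 CPM in TN; their part in these ratios was not tested. Slit3 had a ratio of 0.848 (0.723 to 0.990), Sema3c 0.850 (0.571 to 1.24), Robo1 1.30 (0.843 to 1.96) and Efna5 0.864 (0.491 to 1.45). The ratios of Slit3 and Robo1 were inside the 1.5-fold limits in this class, where both were high, but the Robo1 interval reached beyond them.

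In the endothelial class 3 genes reached the minimum: none was higher in 1cyc and 1 lower, where 15.1% of all genes tested were higher and 14% lower (3.43% and 39.8% with TMM scaling). Sema6a had a ratio of 1.10 (0.810 to 1.48) and Efnb2 of 0.870 (0.358 to 1.84). The lower gene was Plxna2, at 96.0 CPM in 1cyc from 3 UMIs and 415 CPM in TN from 79 UMIs, a ratio of 0.231 (0.0467 to 0.701). The call was lost with barcodes of 1 class only, a mitochondrial limit of 5% or a minimum of 100 UMIs, and with 0 other class markers the ratio was 1.63 on 1 UMI in each library. Skeletal muscle genes, led by Ttn, summed to 5375 CPM in the 1cyc endothelial class and 68.3 CPM in the TN one, and their part in the Plxna2 ratio was not tested. In the mural class Slit3, the 1 gene measured, had a ratio of 0.932 (0.463 to 1.75); over all 49 genes tested there, 18.4% were higher and 8.16% lower (2.04% and 51.0% with TMM scaling).

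The wider pathway was described with a list of 40 signalling partners, which held other receptors and surface proteins as well as proteins that act below the receptors. In the adipocyte class 28 were measured, of which 1 was at least 1.5-fold higher in 1cyc and 5 lower, beside the 9.68% higher and 9.62% lower over all genes tested. The higher one was Vav2, a signalling protein that acts below Eph receptors, at 86.7 CPM in 1cyc and 45.5 CPM in TN, a ratio of 1.91 (1.43 to 2.56). Its relative Vav3 had the opposite direction with 0.443 (0.307 to 0.627). The other lower ones were the adaptor Nck2 at 0.522 (0.337 to 0.790), the kinase Fyn at 0.449 (0.244 to 0.785), the actin regulator Enah at 0.589 (0.372 to 0.911) and the endothelial receptor Kdr at 0.333 (0.207 to 0.518). All 5 lower partners reached the minimum only with their TN UMIs. The counts of partners and their median ratio below are therefore descriptions and support nothing. In TN these 5 partners were higher in the endothelial than in the adipocyte class, Kdr 11.3, Vav3 7.89, Fyn 5.42, Enah 4.43 and Nck2 4.35 times. Endothelial markers summed to 144 CPM in the 1cyc and 438 CPM in the TN adipocyte class, and the part of endothelial RNA in the lower levels was not tested. The median log2 ratio of the 28 partners was -0.11. The Slit-Robo GTPase activating protein genes Srgap1 and Srgap2 were at 0.667 (0.431 to 1.01) and 0.732 (0.591 to 0.902), and neogenin (Neo1) was at 0.941 (0.786 to 1.12).

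The neuropilins, co-receptors of class 3 semaphorins, differed little between the libraries in adipocytes. Nrp1 was at 633 CPM in 1cyc and 599 CPM in TN, a ratio of 1.06 (0.966 to 1.16), and Nrp2 at 298 CPM in 1cyc and 285 CPM in TN, a ratio of 1.05 (0.915 to 1.19). Both were lower in the Nnat/Slc7a10 adipocytes than in the others: in TN, Nrp1 was at 0.578 (0.433 to 0.756) and Nrp2 at 0.384 (0.226 to 0.613) of the level in the other adipocytes. In the fibroblast class Nrp1 was at 571 CPM in 1cyc and 315 CPM in TN, a ratio of 1.82 (1.22 to 2.67). There 11 of the 40 partners were measured, of which 4 were higher in 1cyc, Srgap1, Farp1, Arhgef11 and Vav3, and none lower, beside 11.7% higher and 9.35% lower over all genes tested (3.55% and 18.5% with TMM scaling). Srgap1 was at 519 CPM in 1cyc and 310.3 CPM in TN fibroblasts, a ratio of 1.67 (1.11 to 2.49). Farp1 had a ratio of 1.514 (0.877 to 2.54), Arhgef11 1.503 (0.790 to 2.76) and Vav3 1.672 (0.920 to 2.96). The intervals of Farp1, Arhgef11 and Vav3 included 1, so no direction was shown for them.

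Over the 8 sums of 4 classes in 2 libraries, the 5 genes whose level was most like that of Slit3 among 4107 genes compared were Adamts12 (Pearson r of 0.975), Opcml (0.964), Fam129a, Nckap5 and Rora (0.941). The points share libraries and, through barcodes of more than 1 class, nuclei, so these values are descriptions.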

How the data were processed

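Single-nucleus RNA was measured in 1 pooled library of 1cyc and 1 of TN. The authors deposited raw UMI counts per gene and barcode, without normalization. The submitters' processing notes name Cell Ranger 3 and the build mm10; per the file headers the version was 3.1.0. Which annotation was counted, and whether introns were, is not given in the sources used here.

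Barcodes with 20% or more mitochondrial UMIs were left out, and classes were set by marker sums of at least 3 UMIs; a barcode could join several. Class sums were scaled to CPM (python 3.11.15, scipy 1.17.1). A gene was measured in a comparison with at least 50 UMIs over both sums, and called at a CPM ratio of 1.5 or more either way. With 1 library per condition no p-value was computed. Intervals and calls were run on simulated Poisson counts, with changes well above the 1.5-fold measure. That simulation held no spread between nuclei, mice or libraries, so it could not test them for these data. Values and folds are given for members with 50 or more UMIs in a class; others are given as UMIs or CPM, and with a fold only where they reached 50 UMIs over both sums of that comparison. Sequences came from RefSeq, which held a promoter for 60 of the 72 members and 12 of the 14 measured ones. No doublet caller was used in the reported values. An alternative left out the Scrublet calls (scanpy 1.11.5), which were 6 in 1cyc (0.139%) and 10 in TN (0.392%). With so few calls this alternative says little about doublets, and whether the caller had worked was not checked. In all, 12 alternatives were planned and 4 added after the data were seen; edgeR 4.0.16 gave the TMM scaling. The member rule, the gene lists and the marker lists were chosen with earlier results of these data known.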

Additional observations from a re-analysis of the deposited data

Results flagged for a closer look

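Sema6a had ratios on opposite sides of 1 in 2 classes. Its ratio of 1cyc over TN was 0.467 in the adipocyte class and 1.90 in the Pdgfra/Dcn/Lama2 class, and the difference between them was not tested. With 0 UMIs of other class markers the ratios were 1.21 in the adipocyte class and 0.758 in the Pdgfra/Dcn/Lama2 class. With 0 UMIs of 8 endothelial genes the adipocyte ratio was 1.03. All of these stricter ratios had intervals that included 1, so no direction was shown there.

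Plxna1 was also seen in barcodes that the report leaves out, those with 20% or more mitochondrial UMIs (2275 in 1cyc and 84 in TN). It had 66 UMIs there in 1cyc and 3 in TN, which scaled to UMIs that are not mitochondrial is a ratio of 2.39 (0.784 to 11.9), an interval that includes 1.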

How the results depend on the processing

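No paired analysis was possible because each condition was 1 library, and for the same reason no replicate could be left out. Of the recomputed counts of members, 112 were within 1.5 times the reported count and 44 were not; of the recomputed ratios, 403 stayed, 33 moved and 8 reversed. The cause was not tested unless an alternative's own construction shows it, as with another minimum or fold.

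In the adipocyte class the count higher in 1cyc, 1 as reported, was 3 with no mitochondrial limit, 4 with a minimum of 20 UMIs and 0 at 2-fold. The count lower in 1cyc, 7 as reported, was 3 with barcodes of 1 class only, 2 with 0 other class markers, 4 with marker sums of at least 5, 3 with a minimum of 100 UMIs, 18 with a minimum of 20, 4 with 0 endothelial genes, and 1 with 0 other class markers and 0 Nnat and Slc7a10 UMIs. In the Pdgfra/Dcn/Lama2 class the 1 higher gene was 0 with barcodes of 1 class only, 0 other class markers, a mitochondrial limit of 5%, marker sums of at least 5, a minimum of 100 UMIs and 2-fold, and 2 with a minimum of 20. The count of 0 lower genes there was 1 with marker sums of at least 5 and 2 with a minimum of 20. In the Ptprb/Flt1 class the 1 lower gene was 0 with barcodes of 1 class only, a mitochondrial limit of 5% and a minimum of 100, 5 with a minimum of 20 and 2 with TMM scaling; the count higher was 3 with a minimum of 20. In the Postn/Trpc6 class 1 gene was lower with TMM scaling.

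For the Nnat/Slc7a10 adipocytes of 1cyc, the 3 higher genes were 1 with a minimum of 100 UMIs or 0 endothelial genes and 7 with a minimum of 20, and the 2 lower ones were 1 with barcodes of 1 class only, a mitochondrial limit of 5%, a minimum of 100 or 0 endothelial genes and 5 with a minimum of 20. For those of TN, the 4 higher genes were 9 with a minimum of 20 and 2 at 2-fold or with TMM scaling. The 4 lower ones were 2 with barcodes of 1 class only, a mitochondrial limit of 5%, marker sums of at least 5 or 0 endothelial genes, 1 with 0 other class markers or a minimum of 100, and 12 with a minimum of 20.

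Ratios that reversed for 1cyc over TN were those of Sema6a in the adipocyte class (1.21 with 0 other class markers, 1.03 with 0 endothelial genes, 1.07 with 0 Nnat and Slc7a10 UMIs as well as 0 other class markers), Efnb2 there (1.15 with 0 endothelial genes), Sema6a in the Pdgfra/Dcn/Lama2 class (0.758) and Plxna2 in the Ptprb/Flt1 class (1.63, on 1 UMI in 1cyc and 1 in TN), the last pair with 0 other class markers. Efnb2 in Nnat/Slc7a10 over other adipocytes of TN had 1.29 with 0 other class markers and 1.73 with 0 endothelial genes. TMM scaling moved the median log2 ratio of all genes by -0.12 in the adipocyte class, -0.25 in the Pdgfra/Dcn/Lama2, -0.49 in the Ptprb/Flt1 and -0.75 in the Postn/Trpc6 class, and by -0.53 and -0.18 for Nnat/Slc7a10 over other adipocytes of 1cyc and TN. Over all alternatives the adipocyte-class ratio was 0.379 to 0.700 for Slit3, 0.427 to 0.502 for Sema5a, 1.61 to 1.79 for Plxna1 and 0.962 to 1.13 for Efna5. Some alternatives left a class without measured members and gave no count there. Others left fewer members at the minimum, so that a smaller count does not separate lost UMIs from a lost difference. At this depth 4 of 31 receptors and 10 of 36 ligands reached 50 UMIs in a class.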

Other observations

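Barcodes under the mitochondrial limit that joined no class numbered 391 in 1cyc and 351 in TN, with medians of 331 UMIs in 1cyc and 736 in TN. In their sums Efna5 was at 561 CPM in 1cyc and 263 CPM in TN, a ratio of 2.13 (1.65 to 2.75), and Sema3c at 231 CPM in 1cyc and 148 CPM in TN, a ratio of 1.55 (1.07 to 2.25). Slit3 was at 389 CPM in 1cyc and 558 CPM in TN there, a ratio of 0.697 (0.541 to 0.891). In barcodes with 20% or more mitochondrial UMIs, Sema6a had 38 UMIs in 1cyc and 46 in TN, which scaled to UMIs that are not mitochondrial is a ratio of 0.0899 (0.0569 to 0.141). These barcodes numbered 2275 in 1cyc and 84 in TN, with medians of 328 UMIs in 1cyc and 715.5 in TN. They were not sorted into classes, and the part of their cell types in this ratio was not tested.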
